A study of Mus musculus with 12 samples.

Results

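The genes described here are 9 genes of blood coagulation and plasminogen activation, measured by RNA sequencing of mouse brain after experimental stroke. They are Plau, Plaur, Plat, F3, Thbd, Procr, Fgl2, F10 and Vwf, and they were taken as the rows of the count table whose identifier equals one of these symbols. All 9 were found among the 39756 genes of the table. RNA came from the ischemic hemispheres of 12 male C57BL/6J mice of 9 to 10 weeks, 4 per group in the groups Sham, Vehicle and LJP, and the labels use the same term for the hemispheres of Sham mice. In the Vehicle and LJP groups a filament closed the middle cerebral artery for 45 min before it was withdrawn (transient occlusion, tMCAO), whereas Sham mice had sham surgery. Sham and Vehicle mice received saline and LJP mice received Laminaria japonica polysaccharide (LJP), a sulfated polysaccharide of brown seaweed, by gavage daily for 14 days before surgery and further after it. The labels do not give the dose. Of 3 doses tried, the study took the middle dose into its later experiments, and the methods text names neither the dose nor the time point of the sequenced mice. Every label gives the same batch.

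Coagulation starts when tissue factor, encoded by F3, meets plasma factor VII and activates factor X, the product of F10, which then turns prothrombin into thrombin. On the vessel wall this is restrained by thrombomodulin (Thbd) and the endothelial protein C receptor (Procr), which together let thrombin activate protein C. Clots are dissolved by plasmin, which is cut from plasminogen by urokinase (Plau) or tissue plasminogen activator (Plat), the enzyme given as thrombolytic treatment in ischemic stroke, while the urokinase receptor (Plaur) holds urokinase on the cell surface.

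Total counts per mouse ranged from 17960353 to 22216315. Levels are given as CPM, in which each count is scaled by the TMM-normalized size of its library, and 3 counts, the limit set by a count of 0, correspond to 0.129 to 0.173 CPM. Of the 9 genes, 8 had enough counts for the edgeR quasi-likelihood test over 17558 genes. F10 did not, and its single values were compared by a two-sided exact permutation test, whose smallest p with 4 mice against 4 is 0.0286. All 8 neuron, 8 astrocyte, 8 oligodendrocyte and 8 microglia markers passed the same filter.

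A promoter entry in the RefSeq table of build GRCm38.p6 was matched for 5 of the 9 genes (F3, Procr, Fgl2, Plaur and F10). The 250 bases before the start site were searched on both strands for 7 motifs, and the letters TGANTCA, the site of the AP-1 transcription factors, were found in 4 of these 5 promoters, whereas 6.75% of the 32817 promoters of the same length in the table hold them. These 4 sequences are shown 5′ to 3′ because they hold the TGANTCA letters, which are in capitals. F10, whose window does not hold them, was also higher in every Vehicle mouse than in any Sham mouse. They lie on the plus strand at chr3:121723287-121723536 (F3), chr2:155750967-155751216 (Procr), chr5:21372423-21372672 (Fgl2) and chr7:24462233-24462482 (Plaur).
F3: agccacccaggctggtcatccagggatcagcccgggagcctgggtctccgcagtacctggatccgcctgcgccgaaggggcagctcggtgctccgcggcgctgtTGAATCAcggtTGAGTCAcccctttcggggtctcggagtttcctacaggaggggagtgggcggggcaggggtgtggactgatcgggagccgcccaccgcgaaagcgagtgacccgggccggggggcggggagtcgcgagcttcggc
Procr: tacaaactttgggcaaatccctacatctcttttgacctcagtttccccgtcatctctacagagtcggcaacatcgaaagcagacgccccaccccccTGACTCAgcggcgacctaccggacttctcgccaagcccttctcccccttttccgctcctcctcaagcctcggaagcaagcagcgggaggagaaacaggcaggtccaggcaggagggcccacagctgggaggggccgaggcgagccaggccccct
Fgl2: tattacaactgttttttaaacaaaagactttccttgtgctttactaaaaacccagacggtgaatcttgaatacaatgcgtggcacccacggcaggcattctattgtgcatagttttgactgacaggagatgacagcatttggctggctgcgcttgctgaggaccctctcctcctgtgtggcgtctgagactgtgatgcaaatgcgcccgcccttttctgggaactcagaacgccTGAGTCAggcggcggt
Plaur: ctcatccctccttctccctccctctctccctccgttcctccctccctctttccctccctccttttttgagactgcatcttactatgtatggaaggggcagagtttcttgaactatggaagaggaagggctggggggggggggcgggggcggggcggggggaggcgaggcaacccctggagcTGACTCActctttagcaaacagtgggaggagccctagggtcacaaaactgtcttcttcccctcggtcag
The matches begin at position -146 and again at -135 before the start site of F3, at -154 for Procr, at -16 for Fgl2 and at -69 for Plaur. The table's start sites of Plaur and Procr lie inside the extents that the count table gives to these genes. In the F10 promoter the only match was the HIF letters ACGTG, which 16.6% of promoters hold. The SP1 letters GGGCGG, held by 32.7% of promoters, were found in F3, Fgl2 and Plaur, and the CEBP letters TTGCNNAA (9.57% of promoters) in Procr and Plaur. The EGR1 letters GCGNGGGCG (4.70%) were found in Plaur, where they overlap the SP1 matches. No match was found for the NF-kappa B motif (4.65%) or the TATA letters TATAAA (12.4%) in these 5 windows. A match describes the sequence and is not a measured binding site.

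All 9 genes were higher in each Vehicle mouse than in any Sham mouse. In edgeR's test with Benjamini-Hochberg adjustment, 8 of the 8 genes tested rose, where 39.9% of all genes tested changed (22.7% rose and 17.3% fell). Procr, one of the 8, passed the filter on low counts only through its Vehicle mice, so its rise does not count as support. DESeq2 called 9 of 9, where it called 36.4% of its genes, and 8 of 8 passed an absolute log2 fold change above 0.58 at an unadjusted p below 0.01, where 21.7% of all genes did. The ninth gene of DESeq2, F10, had 0 counts in every Sham mouse and could be tested only through its tMCAO mice. Its call does not count as support either, and Procr is in all of these counts. The plot of each gene by mouse shows the individual levels. The log2 fold changes had a median of 2.70 over the 8 genes, against 3.5e-05 over all genes tested, and of 3.02 over the 9 genes with F10 set to its lower bound. Among the 8 genes tested, the increases differed in size by gene, from 1.65-fold for F3 to 42.2-fold for Plaur. Non-overlapping levels of this kind were found for 39.5% of all genes tested (20.7% higher and 18.8% lower), so that such separation was common in these data. In bulk tissue, a change in the number of cells of a type and a change in RNA per cell cannot be told apart.

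**Figure D1:**
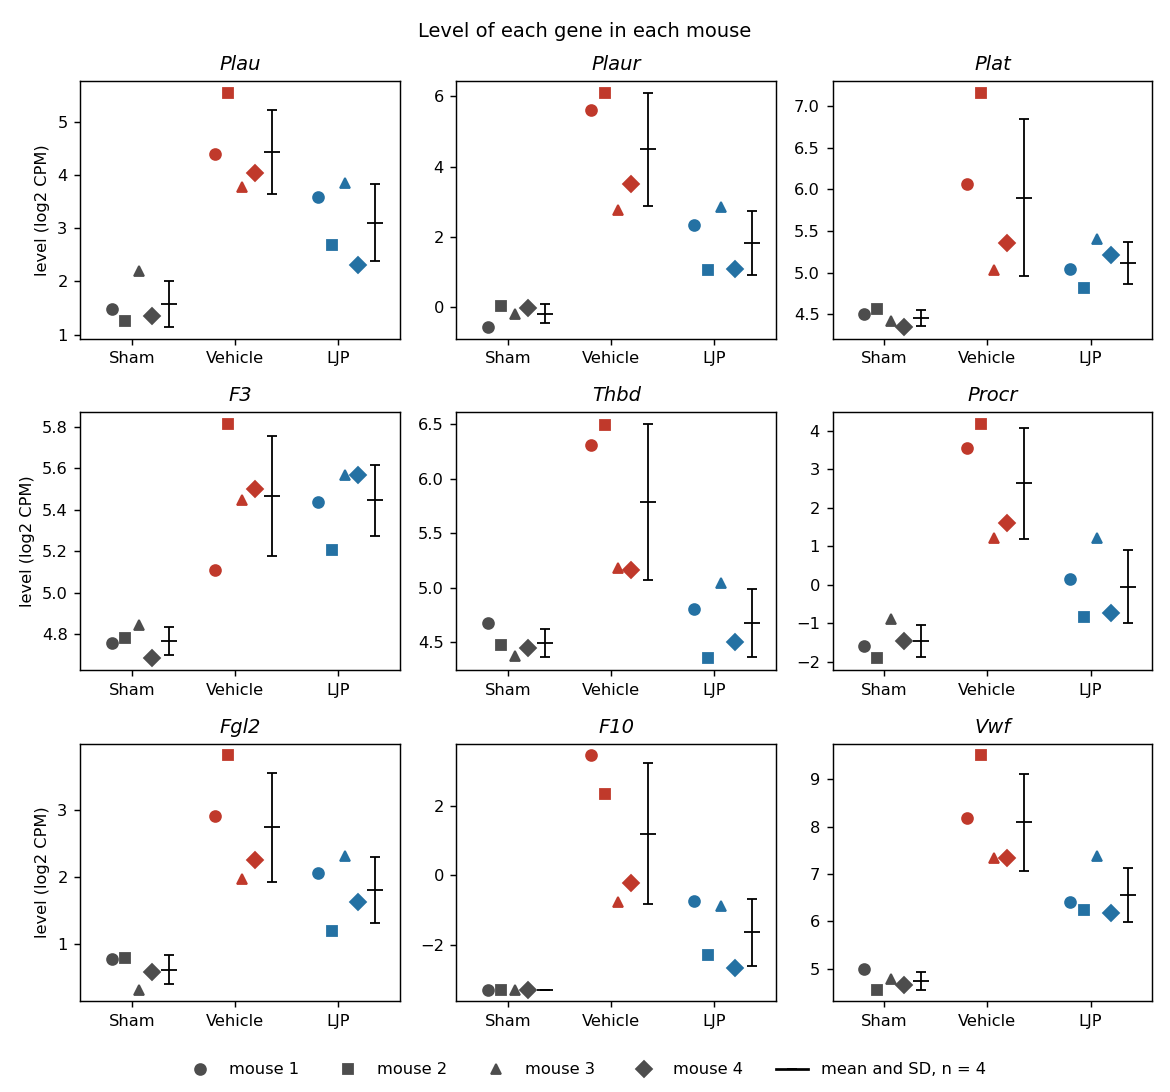
Level of each of the 9 genes in each of the 12 mice as log2 CPM with a prior count of 2 (y axis of each panel) by group (x axis). Symbols mark the mouse number within a group, and bars give the mean and SD of 4 mice. Each Vehicle mouse lies above each Sham mouse in all 9 panels, and Vehicle mouse 2 is the highest of all in 8 of them.

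F3, on chromosome 3 (121723537 to 121735052, plus strand), had the smallest spread among mice, with a coefficient of variation of 4.56% in Sham, 19.9% in Vehicle and 11.5% in LJP mice. In mice 1 to 4 of each group, in that order, its level was 27.0, 27.4, 28.6 and 25.6 CPM in the Sham group, 34.4, 56.2, 43.5 and 45.2 CPM in the Vehicle group and 43.3, 36.8, 47.4 and 47.4 CPM in the LJP group. Both tMCAO groups lay above every Sham mouse, and the LJP range lay inside the Vehicle range. F3 rose in Vehicle against Sham by a log2 fold change of 0.72 ± 0.13 (SE, adjusted p = 0.00166, higher in 4 of 4 mice) and in LJP against Sham by 0.69 ± 0.13 (adjusted p = 0.0102, 4 of 4 mice). Between LJP and Vehicle the difference was -0.04 with a 95% interval from -0.32 to 0.25 (adjusted p = 0.865), an interval that holds no change of the size seen against Sham.

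F10 lies on chromosome 8 (13037308 to 13056676, plus strand) and encodes the zymogen of factor Xa, which is made chiefly in the liver. It had 0 counts in all 4 Sham mice. The 4 Vehicle mice had 239, 115, 9 and 14 counts, or 10.8, 4.94, 0.484 and 0.754 CPM, and the 4 LJP mice had 11, 2, 8 and 1 counts, or 0.4996, 0.102, 0.435 and 0.0557 CPM. Most of the signal was therefore in Vehicle mice 1 and 2, and the other Vehicle mice lay near the higher LJP mice. The mean of the Vehicle group was at least 25.9-fold higher than the Sham floor of 3 counts per library (exact permutation test, p = 0.0286), and at least 12.6-fold higher without Vehicle mouse 1. LJP mice 2 and 4, with 2 counts and 1 count, were under the floor of 3 counts, and the LJP mean was at least 1.66-fold above the Sham floor, and at least 1.20-fold without LJP mouse 1. LJP was 15.6-fold lower than Vehicle (exact permutation test, p = 0.0571), and 7.54-fold lower without Vehicle mouse 1. Of 6 hepatocyte markers, Alb, Ahsg and Tat had at most 3 counts in every mouse and Serpina1a had 0, so that their summed level of 0.519 to 1.86 CPM came mainly from Apoa1 and Apoa2. Apoa2, the only one tested, did not pass in Vehicle against Sham (0.20, adjusted p = 0.635).

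Thbd, on chromosome 2 (148404471 to 148408188, minus strand), was the only one of the 9 whose LJP and Vehicle levels did not overlap. Its level was 25.5, 22.2, 20.6 and 21.7 CPM in Sham, 79.2, 90.0, 36.3 and 35.6 CPM in Vehicle and 27.9, 20.3, 33.0 and 22.5 CPM in LJP mice. The Vehicle mice formed a higher and a lower pair, and the LJP mice spread around the Sham level. Thbd rose by 1.42 ± 0.28 on the log2 scale in Vehicle against Sham (adjusted p = 0.00252). The difference of LJP from Vehicle was -1.22 ± 0.28 (adjusted p = 0.0678), lower in 4 of 4 mice without passing the test, and that of LJP from Sham was 0.20 with a 95% interval from -0.40 to 0.81.

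Procr, on the same chromosome (155751125 to 155755478, plus strand), was close to the counting floor in Sham mice, with 4, 3, 8 and 5 counts. These correspond to 0.231, 0.163, 0.438 and 0.259 CPM, against 11.6, 18.0, 2.21 and 2.96 CPM in Vehicle and 0.999, 0.460, 2.23 and 0.502 CPM in LJP mice. LJP mouse 3 reached the level of the lower Vehicle mice, and the other LJP mice stayed between the Sham and Vehicle ranges. The rise against Sham was 4.97 ± 0.80 (log2, adjusted p = 0.000835), or 31.3-fold, and 20.1-fold without Vehicle mouse 2. LJP differed from Vehicle by -3.06 ± 0.68 (adjusted p = 0.0678), by -2.42 without Vehicle mouse 2 and by -3.71 without LJP mouse 3.

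Fgl2, on chromosome 5 (21372673 to 21378386, plus strand), encodes a fibrinogen-like protein with prothrombin-cleaving activity on immune and endothelial cells. Its level was 1.61, 1.63, 1.15 and 1.40 CPM in Sham, 7.44, 14.01, 3.82 and 4.69 CPM in Vehicle and 4.09, 2.20, 4.89 and 3.01 CPM in LJP mice. The LJP range began below the lowest Vehicle mouse and ended just above the lower pair of Vehicle mice. Fgl2 rose by 2.37 ± 0.40 against Sham (log2, adjusted p = 0.00109), and LJP differed from Vehicle by -1.08 ± 0.37 (adjusted p = 0.095). The gene lies inside Ccdc146, which runs on the opposite strand and had 4 to 27 counts per mouse, so reads of the 2 genes could not be told apart if strand was not used in counting. None of the other 8 genes overlaps another annotated gene.

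Vwf encodes von Willebrand factor, the adhesive protein that endothelial cells and platelets store and release, and it lies on chromosome 6 (125552948 to 125686679, plus strand). Its level was 31.6, 23.5, 27.4 and 25.1 CPM in Sham, 289, 728, 162 and 162 CPM in Vehicle and 85.0, 75.9, 168 and 72.7 CPM in LJP mice. Every LJP mouse was above every Sham mouse, and LJP mouse 3 was level with the lower pair of Vehicle mice. The increase against Sham was 3.64 ± 0.48 (log2, adjusted p = 0.000277), which is 12.5-fold and 7.57-fold without Vehicle mouse 2. Vwf and F3 were the 2 genes that rose in LJP against Sham, Vwf by 1.90 ± 0.45 (adjusted p = 0.032, 4 of 4 mice). That call for Vwf was lost on leaving out any 1 of the 4 Sham mice, mouse 1 of the LJP group or mouse 3 of that group, with log2 values from 1.53 to 1.99. LJP differed from Vehicle by -1.74 ± 0.44 (adjusted p = 0.0678), and by -1.03 without Vehicle mouse 2.

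Both plasminogen activators rose in Vehicle mice. Plau, on chromosome 14 (20836662 to 20843388, plus strand), was at 2.71, 2.29, 4.49 and 2.44 CPM in Sham, 20.7, 46.4, 13.5 and 16.3 CPM in Vehicle and 11.9, 6.29, 14.2 and 4.85 CPM in LJP mice. Its LJP levels lay above all Sham mice and mostly below the Vehicle mice, with LJP mouse 3 overlapping them. Plau rose 8.13-fold against Sham (log2 3.02 ± 0.45, adjusted p = 0.000587), and in LJP it differed by -1.38 ± 0.42 from Vehicle (adjusted p = 0.0738) and by 1.64 ± 0.45 from Sham (adjusted p = 0.0566).

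Plat, on chromosome 8 (22757722 to 22782848, plus strand), started from a higher level than Plau in Sham mice. It was at 22.6, 23.6, 21.4 and 20.3 CPM in Sham, 66.7, 143, 32.6 and 40.9 CPM in Vehicle and 32.9, 28.0, 42.3 and 37.0 CPM in LJP mice. The LJP mice filled the range of the lower pair of Vehicle mice, and Vehicle mouse 2 stood well above the rest. Plat rose 3.23-fold against Sham (log2 1.69 ± 0.37, adjusted p = 0.00387), and 2.12-fold without Vehicle mouse 2. Its difference between LJP and Vehicle was -1.02 ± 0.36 (adjusted p = 0.0975), and -0.42 without that mouse.

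Plaur, on chromosome 7 (24460937 to 24475970, plus strand), had the largest fold change of the 8 genes tested, and its difference from that of Plau was not tested. Its level was 0.577, 0.926, 0.767 and 0.881 CPM in Sham, 48.9, 67.3, 6.67 and 11.2 CPM in Vehicle and 4.996, 1.99, 7.12 and 2.01 CPM in LJP mice. The higher pair of Vehicle mice stood far above the lower pair, and LJP mouse 3 lay above the lowest Vehicle mouse. Plaur rose 42.2-fold against Sham (log2 5.40 ± 0.79, adjusted p = 0.000499), and 27.9-fold without Vehicle mouse 2. LJP differed by -3.06 ± 0.66 from Vehicle (adjusted p = 0.0678), by -2.47 without that mouse, and by 2.34 ± 0.79 from Sham (adjusted p = 0.123).

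**Figure D2:**
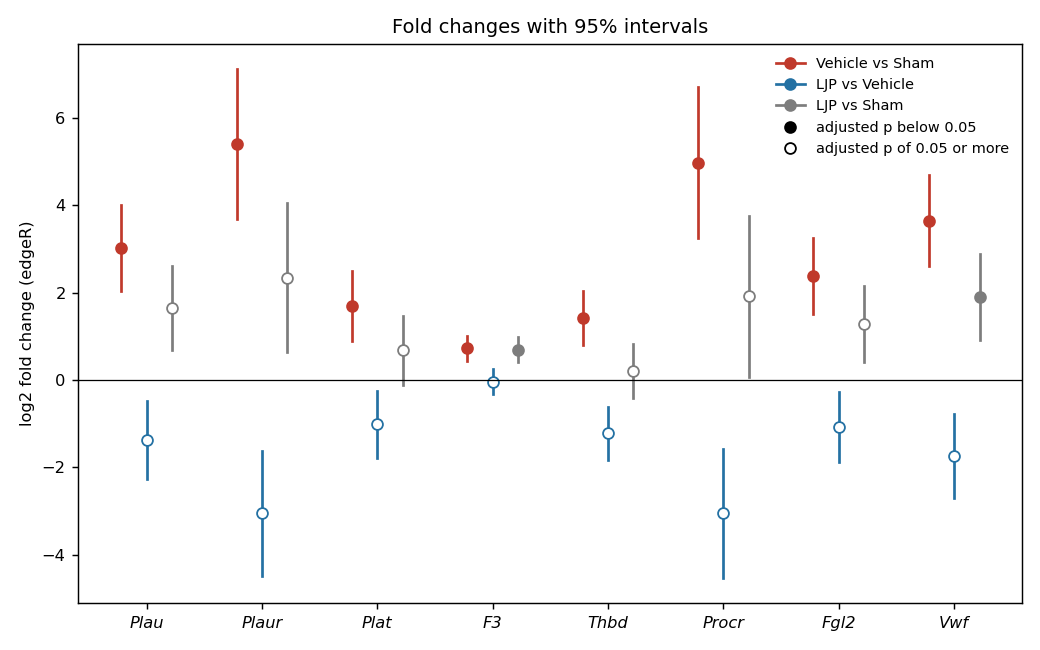
Log2 fold changes (y axis) of the 8 genes tested with edgeR (x axis), with 95% intervals, for Vehicle against Sham, LJP against Vehicle and LJP against Sham. Filled points have an adjusted p below 0.05. All 8 Vehicle against Sham points are filled and above 0, none of the LJP against Vehicle points is filled, and F3 (0.69) and Vwf (1.90) are the 2 filled points of LJP against Sham.

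In LJP against Vehicle, 0 of the 8 genes tested passed edgeR's test, where 4 of all 17558 genes (0.0228%) did. All 8 log2 fold changes were below 0, with a median of -1.30 (-1.38 over the 9 genes with F10 taken from its CPM), against -0.0017 over all genes tested. At an unadjusted p below 0.05 the count was 7, all but F3, where 29.7% of all genes tested passed, and DESeq2 with adjusted p below 0.05 called 8 of 9, again all but F3, where it called 13.2% of its genes. The combined fold and unadjusted p limits were passed by 5 of the 8 genes and by 6.97% of all genes tested. With Vehicle mouse 3 left out, edgeR called 7 of these 8, all but F3, where it called 21.6% of all genes, and with mouse 4 of that group left out it called 6, where it called 11.7%. Procr is in each of these counts and in the median, and F10 is in the count of DESeq2. Procr passed the filter on low counts only through its Vehicle mice, and most counts of F10 were in Vehicle mice, so neither gene counts as support. Only Thbd had levels in LJP that did not overlap those in Vehicle, as did 11.7% of all genes tested (5.91% lower and 5.77% higher). For Plau, Plaur, Procr, F10 and Vwf, 3 of the 4 LJP mice were below every Vehicle mouse.

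In LJP against Sham, 2 of the 8 genes tested rose (F3 and Vwf), where 4.75% of all genes tested changed and 3.85% rose. The median log2 fold change was 1.47 over the 8 genes and 1.29 over the 9 genes with F10 at its bound, against 0.0032 over all genes tested. Levels did not overlap for 8 of the 9 genes, all but Thbd, as for 24.9% of all genes tested (12.9% higher). DESeq2 called 6 of 9 (7.55% of its genes), 4 of 8 passed the combined limits (5.9% of all genes tested), and edgeR called 6 (13.3% of all genes) without Vehicle mouse 2, which is in neither of the groups compared but in the shared estimate of the spread. The 2 comparisons with Sham use the same 4 Sham mice, and those of LJP and of Sham with Vehicle the same 4 Vehicle mice.

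For each of the 9 genes the Vehicle mice covered a wider fold range than the LJP mice. The ratio of the highest to the lowest Vehicle mouse was 1.63 for F3, 2.53 for Thbd, 3.43 for Plau, 3.67 for Fgl2, 4.39 for Plat, 4.49 for Vwf, 8.18 for Procr, 10.1 for Plaur and 22.4 for F10. Vehicle mouse 2 was the highest of its group for 8 of the 9 genes and mouse 1 for F10, while mouse 3 was the lowest for 6. Among LJP mice, mouse 3 was the highest for 7 genes and mouse 2 the lowest for 6.

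Markers of other cells moved in the same mice. In Vehicle against Sham 22.7% of all genes tested rose and 17.3% fell, which are the shares to set beside the counts of each list. The summed level of 12 endothelial markers was 255 to 275 CPM in Sham, 918, 1994, 369 and 465 CPM in Vehicle mice 1 to 4 and 250.03 to 342 CPM in LJP mice, and 11 of the 12 rose in Vehicle against Sham, with a median log2 fold change of 1.99. Monocyte and macrophage markers summed to 102 to 108, 359 to 1495 and 174 to 429 CPM in the 3 groups, with 7 of 7 tested genes of 8 rising. Neutrophil markers, 0 of 8 tested, summed to 165, 40.5, 0.754 and 5.55 CPM in the Vehicle mice and to at most 1.11 CPM elsewhere. The sums of 5 erythroid markers were 3.89 to 5.99, 9.80 to 89.2 and 5.42 to 8.92 CPM, and 5 of 5 rose. Fibroblast and mural markers reached 1182 CPM in Vehicle mouse 2, against 171 to 185 CPM in Sham, and 6 of 8 rose. Platelet markers summed to 131 to 144, 96.7 to 116 and 106 to 130 CPM, and 4 of 9 were tested. In Vehicle against Sham, Pf4 (log2 4.70) and Itga2b (1.86) rose, Gp5 (0.64) did not pass and Gp1bb (-0.68) fell. The lower sum in Vehicle mice therefore does not describe the genes that rose. In LJP against Vehicle no gene of the lists named so far passed edgeR's test (smallest adjusted p = 0.0678). At an unadjusted p below 0.05, which 29.7% of all genes tested passed, the counts were 12 of 12 endothelial, 4 of 7 monocyte and macrophage, 5 of 5 erythroid, 6 of 8 fibroblast and mural and 4 of 4 platelet genes. All of these were lower in LJP mice except the platelet gene Gp1bb (0.44). DESeq2, which called 13.2% of its genes, called 12, 3, 5, 5 and 3, and 5 neutrophil genes. Of the brain cell lists, 5 of 8 microglia markers rose in Vehicle and in LJP against Sham (3.85% of all genes tested rose in the latter). In Vehicle against Sham 2 astrocyte markers rose and 1 fell, 2 oligodendrocyte markers rose and 3 neuron markers fell. In LJP against Vehicle 0 of 8 microglia markers and 2 of 8 in each other brain list had an unadjusted p below 0.05. Lung markers, 5 of 6 tested, summed to 10.4 to 15.2 CPM in Sham and Vehicle mice and to 1.04 to 1.56 CPM in LJP mice, and 3 of the 4 genes that passed in LJP against Vehicle were among them (Scgb1a1, -9.53, Sftpa1, -7.77, and Sftpb, -4.59). Vehicle mice 1 and 2 also had the larger totals of their group, 21633197 and 22216315 counts against 18409922 and 18317859. The part of any of these in the levels of the 9 genes was not tested.

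Set against the endothelial markers of the same mouse, the 9 genes differed from each other. The level of Vwf minus the mean of the 12 markers was 0.74 ± 0.16 (log2, SD, n = 4) in Sham, 2.52 ± 0.24 in Vehicle and 2.501 ± 0.32 in LJP mice, so that every tMCAO mouse (2.24 to 2.97) lay above every Sham mouse (0.61 to 0.95) and the tMCAO groups overlapped. For Thbd the same difference was 0.49 ± 0.12, 0.22 ± 0.53 and 0.62 ± 0.13, and for Plat 0.45 ± 0.12, 0.34 ± 0.19 and 1.06 ± 0.14. The Thbd differences of the 3 groups overlapped, and those of Plat were higher in all 4 LJP mice than in any other. F3 stood at 0.76 ± 0.09 in Sham and 1.39 ± 0.19 in LJP, and it spread from -1.20 to 0.97 among Vehicle mice, with mice 1 and 2 below 0.

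For Plaur, Procr, Plau and F10 every tMCAO mouse stayed above every Sham mouse after this subtraction. The means in Sham, Vehicle and LJP were -4.19, -1.08 and -2.22 for Plaur, -5.47, -2.93 and -4.11 for Procr, -2.43, -1.14 and -0.95 for Plau, and -7.29, -4.37 and -5.70 for F10, whose Sham value rests on the prior count alone. For Fgl2 they were -3.38, -2.83 and -2.25, and 1 Vehicle mouse (-3.20) lay within the Sham range. These differences describe the libraries and were not tested.

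**Figure D3:**
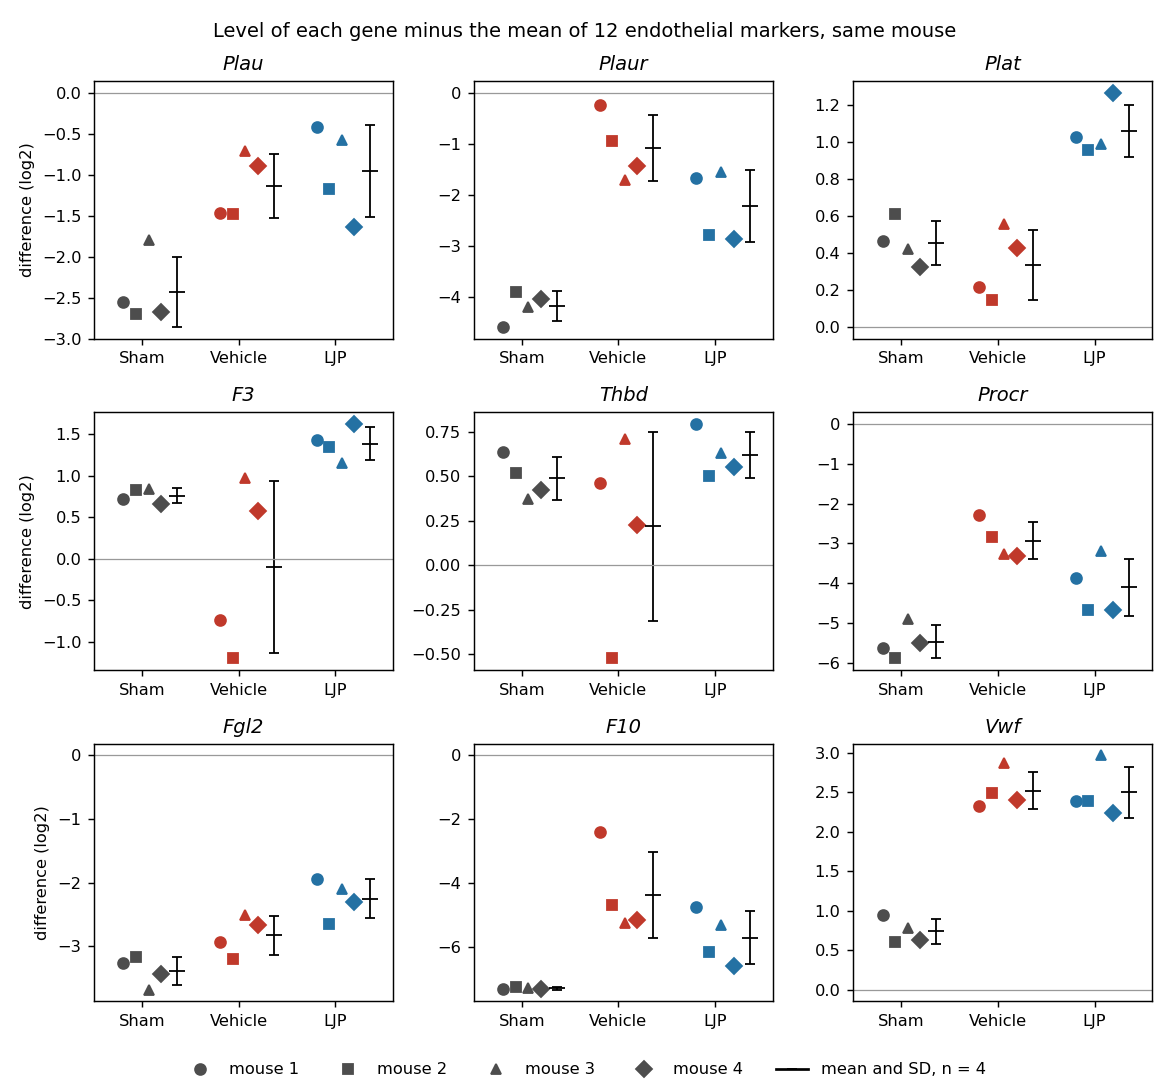
Level of each gene minus the mean of 12 endothelial markers in the same mouse (y axis, log2 units) by group (x axis). Symbols mark the mouse number and bars the mean and SD of 4 mice. Vwf sits near 2.5 in both tMCAO groups and below 1 in Sham, whereas the 3 groups of Thbd overlap and Vehicle mice 1 and 2 fall lowest for F3.

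Per kilobase of transcript, which allows levels of different genes to be compared, F3 led in Sham mice with 14.5 ± 0.66 CPM per kb (SD, n = 4). Plat (8.60), Thbd (6.05), Vwf (2.97), Plau (1.18), Plaur (0.459), Fgl2 (0.385), Procr (0.150) and F10 (0) followed. Of these neighbours, only Plaur and Fgl2 differed by less than the larger SD. In Vehicle mice the order was Vwf (37.0 ± 29.6), Plat (27.7 ± 19.7), F3 (23.9 ± 4.76), Plaur (19.6 ± 17.2), Thbd (16.2 ± 7.64), Plau (9.62 ± 5.99), Procr (4.78 ± 4.14), Fgl2 (1.99 ± 1.22) and F10 (1.58 ± 1.80). No pair of neighbours in it differed by more than the larger SD. In LJP mice F3 led again with 23.3 ± 2.67, ahead of Plat (13.7 ± 2.37), Vwf (11.1 ± 4.98) and Thbd (6.98 ± 1.52), and Plau (3.70 ± 1.77), Plaur (2.35 ± 1.46), Fgl2 (0.941 ± 0.315), Procr (0.575 ± 0.453) and F10 (0.101 ± 0.0841) followed. Of these neighbours, F3 and Plat, Thbd and Plau, and Procr and F10 differed by more than the larger SD, and the others by less. With the longest GENCODE transcript in place of the length in the table, Plat fell to the third place in each group.

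The genes most like each of the 8 genes tested, which leaves out F10, were found over the 12 mice by the root mean square difference of log2 CPM after each gene was centred on its own mean. For Vwf they were Anxa2 (0.213), a plasminogen receptor subunit, and Fblim1 (0.227), a focal adhesion protein. For Plaur they were Hmox1 (0.217), which breaks down heme, and Pirb (0.265), an inhibitory receptor of myeloid cells. Procr was nearest to Tgfbi (0.317), a matrix protein, and Il4ra (0.346), a cytokine receptor chain, and Plaur and Procr differed from each other by 0.422. The closest pair among the members was Plat and Thbd (0.311), followed by Plat and Fgl2 (0.351) and Plau and Vwf (0.390). Plau had Eif4ebp1 (0.275), a repressor of translation, and Dab2 (0.279), an endocytic adaptor. The nearest genes of Plat were Wwtr1 (0.153) and Ralb (0.160), those of Thbd Clic4 (0.162) and Vwa1 (0.163), those of Fgl2 Arhgdib (0.186) and Dap (0.187) and those of F3 Asah1 (0.131) and Masp1 (0.135). The 12 points of each gene share the contrast between the groups, and the measure is a description without a test.

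Beyond the 9 genes, 53 genes of 4 lists cover more of the pathway, and 33 of them had enough counts for the test. In Vehicle against Sham, 19 rose (22.7% of all genes tested did), 1 fell and 13 did not pass edgeR's test, with a median log2 fold change of 0.62 that stays the same with the genes at the Sham floor set to their bound. F7 and Tfpi2 are among the 19 and passed the filter on low counts only through tMCAO mice, so their rises do not count as support. In LJP against Vehicle none passed (median -0.48, smallest adjusted p = 0.0678), while 18 were below an unadjusted p of 0.05 (29.7% of all genes tested) and 14 passed with DESeq2 (13.2%), and in LJP against Sham 4 rose (3.85%). Their number in LJP against Vehicle was 17 on leaving out mouse 3 of the Vehicle group (21.6% of all genes) and 12 on leaving out mouse 4 (11.7%).

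Of 15 further genes of the plasminogen system, 10 were tested and 7 rose in Vehicle against Sham (22.7% of all genes tested did), mostly receptors. Anxa2 and S100a10, the subunits of a cell surface receptor for plasminogen, rose in Vehicle by 3.77 ± 0.45 and 1.75 ± 0.18 and in LJP against Sham by 1.88 ± 0.43 (adjusted p = 0.0262) and 1.08 ± 0.18 (adjusted p = 0.00437). The rise of Anxa2 in Vehicle was 3.17 without Vehicle mouse 2, and its call in LJP against Sham was lost on leaving out any 1 of 6 mice (4 Sham, LJP 1 and LJP 3), with 1.61 to 1.93. Klk6, an oligodendrocyte protease, rose by 2.83 in Vehicle and 2.58 in LJP against Sham, Serping1 (C1 inhibitor) by 1.79 in Vehicle, the receptor Plgrkt by 0.50, and the endocytic receptors Lrp1 by 0.47 and Igf2r by 0.31. The call was lost for Plgrkt without Sham mouse 2 or Vehicle mouse 2 (0.41 to 0.47), and for Igf2r without mouse 1 or 2 of either group (0.22 to 0.31). The inhibitors Serpine2 and Serpini1 did not pass the test, with -0.04 for Serpine2 (protease nexin-1) and -0.46 for Serpini1 (neuroserpin, an inhibitor of Plat in neurons). Plasminogen itself (Plg) had at most 5 counts in any mouse, and Serpinb2, an inhibitor of Plau, at most 17.

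Few coagulation factors were measurable in the tissue. Of 18 genes, 8 were tested. In Vehicle against Sham, where 22.7% of all genes tested rose, 3 of the 8 rose: F13a1, the fibrin-crosslinking factor XIII subunit also made by macrophages, by 3.66 ± 0.62 (adjusted p = 0.00115, 3.04 without Vehicle mouse 2), Vkorc1, the vitamin K reductase, by 0.60 ± 0.16 (adjusted p = 0.0114), and F7, the partner of tissue factor. F7 had 0 to 2 counts in Sham mice, 85, 76, 5 and 11 counts in Vehicle mice and 5 to 11 counts in LJP mice (adjusted p = 0.00231 for Vehicle against Sham). It passed the filter on low counts only through its tMCAO mice, so its rise does not count as support. F5 did not differ detectably (-0.05 with a 95% interval from -1.83 to 1.73), and Lman1, which helps to secrete factors V and VIII, was at 0.43 (adjusted p = 0.0606). F11, F13b, Fgb, Fgg and Kng1 had at most 3 counts in every mouse.

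Of 10 anticoagulant genes, 6 were tested, and 4 rose and 1 fell in Vehicle against Sham, where 22.7% of all genes tested rose and 17.3% fell. Tfpi2 is 1 of the 4 and passed the filter on low counts only through its tMCAO mice, so its rise does not count as support. Pros1, encoding protein S, the cofactor of activated protein C, rose by 2.51 ± 0.33 in Vehicle (adjusted p = 0.000266) and by 1.49 ± 0.32 in LJP against Sham (adjusted p = 0.0196), a call lost without any 1 of the 4 Sham mice or LJP mouse 3 (1.20 to 1.54). The inhibitor of the tissue factor pathway, Tfpi, rose by 1.63 ± 0.38 (adjusted p = 0.00594), with 371 counts in Vehicle mouse 2 against 94 to 113 in the others (1.01 without it), and Anxa5 by 0.96 ± 0.22 (adjusted p = 0.00482). Tfpi2 had 0 counts in all Sham mice and 102, 373, 9 and 26 counts in Vehicle mice, at least 34.3-fold above the Sham floor of 3 counts per library and at least 13.2-fold without Vehicle mouse 2. Proz, a cofactor in the inhibition of factor Xa, fell by 0.60 ± 0.15 (adjusted p = 0.00956). Proc and Serpina5 had at most 3 counts in every mouse.

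Of 10 receptors and partners of thrombin, 9 were tested. In Vehicle against Sham, where 22.7% of all genes tested rose, 5 of the 9 rose. They were F2r, the thrombin receptor PAR1 (1.22 ± 0.27, adjusted p = 0.00441), Entpd1, which breaks down extracellular ATP and ADP (1.20), Nos3, the endothelial nitric oxide synthase (2.18, and 1.41 without Vehicle mouse 2), Ptgis, the prostacyclin synthase (1.31), and Adamts13, the protease that cuts von Willebrand factor (1.17). The call was lost for Ptgis without Sham mouse 1 or 2 or Vehicle mouse 2 (0.72 to 1.27), and for Adamts13 without any 1 of 5 mice (Sham 1 to 3, Vehicle 1 and Vehicle 2, 1.02 to 1.21). Nos3 and Ptgis had lower levels in all 4 LJP mice than in any Vehicle mouse, as did 5.91% of all genes tested. Their log2 differences were -2.001 and -1.61 (adjusted p = 0.0678 for both), and -1.24 for Nos3 without Vehicle mouse 2. F2rl1 (PAR2) had at most 7 counts in any mouse.

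**Figure D4:**
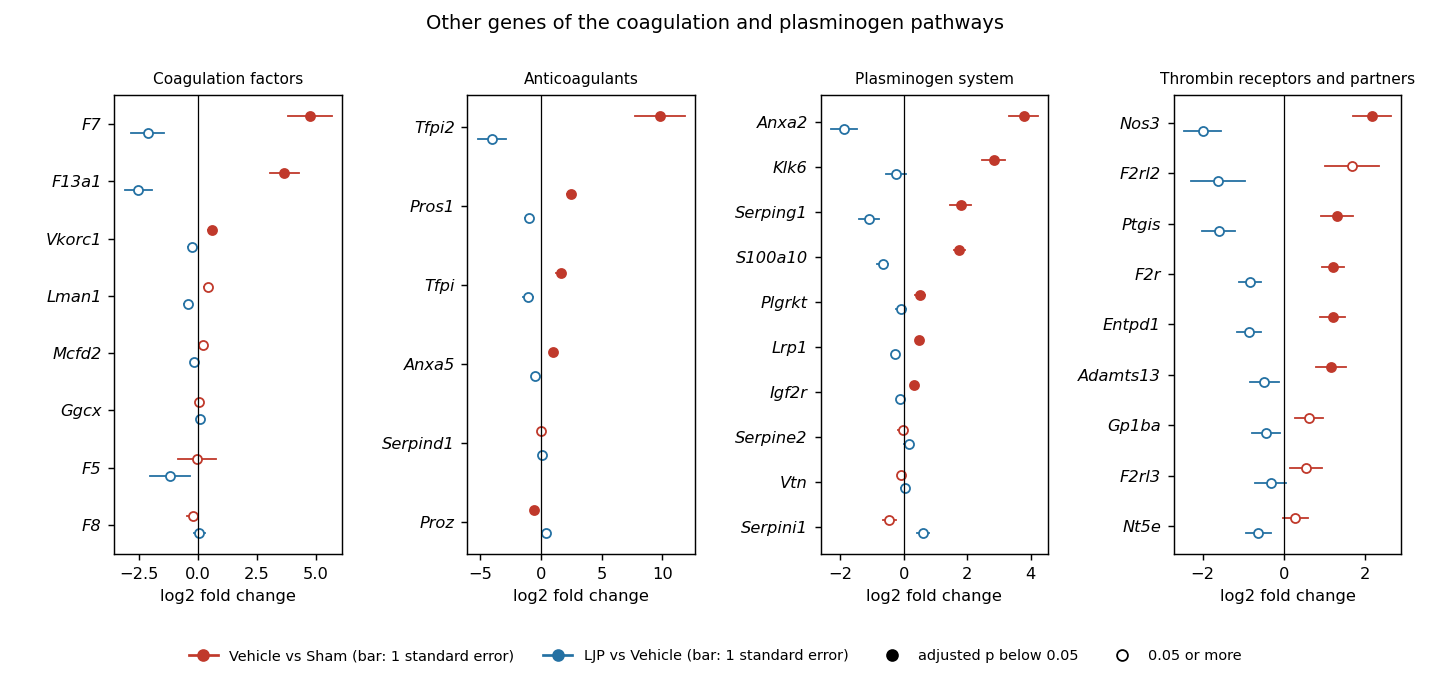
Log2 fold changes (x axis) of the 33 tested genes of the 4 pathway lists (y axis, 1 panel per list), for Vehicle against Sham and LJP against Vehicle, with bars of 1 standard error from edgeR. Filled points have an adjusted p below 0.05. In Vehicle against Sham 20 points are filled, 19 of them above 0 and Proz below, and no LJP against Vehicle point is filled.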

How the data were processed

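RNA of the ischemic hemisphere of 12 mice was sequenced by the authors as poly(A)-selected, paired-end libraries. The authors deposited raw counts per gene and mouse, without normalization. The submitters' processing notes name featureCounts, DESeq2, GRCm39 and mm10, without roles, and gene positions in the table equal those of GRCm38 for the 9 genes. The aligner and the strand setting are not given in the sources used here.

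Groups came from the sample labels. Counts were analysed with edgeR 4.0.16 in R 4.3.3: filterByExpr kept 17558 of 39756 genes, TMM factors were computed, 1 coefficient per group was fitted by the quasi-likelihood method to all 12 mice, and p-values were adjusted over all genes tested by the Benjamini-Hochberg method, with calls below 0.05. Log2 CPM used a prior count of 2, and the exact permutation tests used log2 of CPM plus 0.5 (scipy 1.17.1). The fit was tested on simulated data. Floors of 3 counts cover counting error only. Mice of a group differed by more than sampling noise (lowest chi-square per degree of freedom 2.56).

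The 9 genes, the lists of pathway genes and cell type markers, and the tests were chosen with earlier results of these data known. Named pathway genes were a fixed set of 14, and in each list the 3 others with the smallest p in Vehicle against Sham and the 1 with the smallest p in LJP against Vehicle. Adamts13, F11, F13b, Fgb, Fgg, Kng1, Proc and Serpina5 were named after their values were seen. A gene of the plasminogen list is not reported here and is left out of the list counts. Alternatives were DESeq2 1.42.0, RLE factors, library size alone, keeping genes with low counts, fitting 2 groups at a time, a block for the replicate number, the combined limits of the methods text (log2 fold change beyond 0.58 either way, unadjusted p below 0.01), leaving out each mouse, another prior count and another transcript length.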

Additional observations from a re-analysis of the deposited data

Results flagged for a closer look

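Within a group of 4 mice, 1 mouse stood apart from the other 3 by Dixon's ratio, the gap to the nearest mouse over the whole range, in 10 of 103 groups examined, where chance alone, at about 1 in 20 groups, would give 5.15. Among the 9 genes this was Vwf in the LJP group, where mouse 3 was the highest (ratio 0.871, with 1871, 1484, 3080 and 1305 counts).

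Among the other pathway genes, LJP mouse 3 was also the highest for F5 (0.964), Tfpi2 (0.918), F2r (0.905) and Serpinb2 (ratio 1, from 1 count against 0), and LJP mouse 1 for F2rl1 (0.884, with 4 counts against 2). Vehicle mouse 2 was the highest for Tfpi (0.985) and for Plg (ratio 1, 5 counts against 0). Sham mouse 2 was the highest for Serpinb2 (ratio 1, from 1 count) and the lowest for Igf2r (0.841).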

How the results depend on the processing

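In Vehicle against Sham the 8 genes tested passed under every alternative, with 8 to 9 calls when 1 mouse was left out (the ninth was F10, which had 0 counts in Sham mice and passed the filter there through its tMCAO mice), and 16 to 25 of the other pathway genes passed (20 with all mice). In LJP against Vehicle, 0 calls among the 9 genes became 5 with no filter on low counts (where 1.96% of all genes were called), 8 with DESeq2, 5 at the combined fold and unadjusted p limits, and 0 to 8 when 1 mouse was left out (7 of the 8, and F10). For the other pathway genes the counts were 4, 14, 10 and 0 to 17. In LJP against Sham, 2 calls became 6 with only the 2 groups (23.8% of all genes), 1 with the replicate number as a block (2.64%), 3 with no filter (2.76%), 6 with DESeq2, 4 at the combined limits, and 1 to 6 when 1 mouse was left out. The 4 other pathway genes became 8 with only the 2 groups, 2 with the block and 2 to 5 when 1 mouse was left out. The cause of these differences was not tested. Replicate numbers did not pair the mice: same-numbered mice had correlations of their deviations from -0.32 to 0.11, 1 of 12 over 0.1, and 2 of 12 mice correlated best with their own number. Of the 8 genes tested, only F3 in LJP against Vehicle turned direction when a mouse was left out, to 0.091 without Vehicle mouse 2 and 0.040 without LJP mouse 2, the lowest value being -0.15. Scaling by library size only moved the split of calls in Vehicle against Sham from 3982 higher and 3032 lower to 4737 and 2299, with the 8 genes still higher. F10 minus the endothelial markers moved in Sham with a prior count of 0.5, to -9.28, and Plat per kilobase with the longest GENCODE transcript, to 5.43 in Sham, 17.5 in Vehicle and 8.67 in LJP. Depth limits F10, Procr and F7, whose Sham counts were at most 8, and the genes with at most 3 counts.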
